A study of Mus musculus with 55 samples.

Results

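Presentation of antigen on MHC class II was followed in mouse liver through 7 genes, H2-Aa, H2-Ab1, H2-Eb1, Cd74, Ciita, H2-DMa and H2-DMb1. They were named by symbol, with earlier results of these data known, and all 7 are among the 34490 gene symbols that both sequencing batches list. A class II molecule is a pair of an alpha and a beta chain that displays peptides from engulfed proteins to CD4+ T cells. In the mouse H2-Aa and H2-Ab1 encode the chains of the I-A molecule and H2-Eb1 encodes the beta chain of I-E. C57BL/6 mice carry a defect in the I-E alpha gene H2-Ea and show no I-E at the cell surface, and H2-Ea was listed at 0 reads in every grouped library of batch 1. Cd74, the invariant chain, fills the peptide groove and steers new class II molecules into endosomes, where H2-DMa and H2-DMb1 form the H2-DM exchanger that swaps the last piece of Cd74 for a peptide. Ciita is the coactivator that switches the whole group on and does not bind DNA itself. In the resting liver class II is chiefly a property of dendritic cells, B cells, Kupffer cells and sinusoidal endothelium, and interferon gamma can induce it in other cells.

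The livers came from adult C57BL/6 mice with floxed alleles of Rnf43 and Znrf3, which encode membrane ubiquitin ligases that remove Wnt receptors. In R&Zdel livers the RING exons of both genes were excised by tamoxifen and Alb1-CreERT2 or by AAV8-TBG-Cre, both of which act in hepatocytes. R&Zflox controls carried the same floxed alleles and received sunflower oil or a null AAV8. Undamaged livers were taken 1, 3 or 7 months after deletion (1M, 3M, 7M), chronically damaged livers (CD, repeated CCl4, a hepatocyte toxin) at labelled times of 4, 50 or 170 days, and livers after partial hepatectomy (PHx) at 7 or 21 days of recovery. All CD mice were males of batch 1, for which the sample list of the study names tamoxifen in both genotypes although its methods give R&Zflox mice oil, and all PHx mice were of batch 2 and received AAV8, as did the 1M mice. For undamaged mice the list names tamoxifen at 7M in batch 2 and at 3M and 7M in batch 1, where given. It names AAV8 at 3M in batch 2, so induction and batch cannot be told apart at 3M. The labels mark the R&Zflox CD libraries as chronic damage, whereas the methods of the study give unrecombined littermates the oil vehicle only, so the treatment of these controls cannot be settled here.

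Batch 1 held 2 libraries of each genotype at CD 4d and at CD 170d, and 1 R&Zflox and 2 R&Zdel at CD 50d. Its undamaged libraries were 2 R&Zflox and 1 R&Zdel at 3M and 2 R&Zflox and 3 R&Zdel at 7M. Another 4 libraries entered no group, because their labels contradict each other or the sample list of the study. R&Zdel 3M replicate 4, R&Zflox 7M replicate 5 and R&Zdel 7M replicate 6 of batch 1 were placed in their groups by sample characteristics. For the first 2 of these the title and the characteristics conflict. Batch 2 held 4 libraries of each genotype at 1M, 3 of each at 7M and at each PHx time, and 3 R&Zflox but 1 R&Zdel library at 3M. Assigned reads ran from 11721687 to 38692089 per library over all 53 libraries. Batch 1 detected 15657 to 18545 of the shared symbols per library and batch 2 only 11171 to 13874, so the levels of each batch are given apart. The deleted genes cannot show the excision, since a count per gene does not see which exons remain. Levels are given as CPM (counts scaled to 1000000 assigned reads per library). The summed CPM of Rnf43 and Znrf3 were 31.4 to 73.5 in R&Zdel and 9.48 to 27.4 in R&Zflox livers of batch 1. In batch 2 they were 78.7 to 222.5 and 13.9 to 82.4, which overlap. Their use as a check of the genotype labels was not tested. RNA was from whole liver, in which a change in the number of cells of a type and a change in RNA per cell cannot be told apart.

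Class II genes share a short promoter module, the X and Y boxes, which the RFX complex, CREB and NF-Y bind and on which Ciita assembles. The promoters of H2-Aa, H2-Eb1 and H2-DMb1 are shown because they hold an X core and a Y box within this stretch. The sequences are from RefSeq on GRCm38.p6 and run from 150 bases before the annotated start to the base before it. Capitals mark the Y box core ATTGG or its reverse complement CCAAT, the X1 core GATGATG or CATCATC, and the X2 core TGACG or CGTCA, each searched on both strands.
H2-Aa, chr17:34287824-34287973, minus strand: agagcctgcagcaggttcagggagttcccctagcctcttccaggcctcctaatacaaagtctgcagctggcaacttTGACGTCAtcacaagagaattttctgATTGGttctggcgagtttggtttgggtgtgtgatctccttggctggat
H2-Eb1, chr17:34305717-34305866, plus strand: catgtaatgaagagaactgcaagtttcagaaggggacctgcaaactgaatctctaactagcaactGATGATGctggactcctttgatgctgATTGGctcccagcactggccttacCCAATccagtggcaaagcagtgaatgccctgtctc
H2-DMb1, chr17:34153041-34153190, plus strand: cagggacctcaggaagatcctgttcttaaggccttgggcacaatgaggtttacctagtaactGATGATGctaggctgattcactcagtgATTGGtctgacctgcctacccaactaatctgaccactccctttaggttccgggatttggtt

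The X1 core and the Y box stood in the same order in H2-Eb1 and H2-DMb1, with their first bases 26 and 27 bases apart. In the H2-Aa promoter overlapping X2 cores on the 2 strands began 74 and 71 bases before the start and a Y box 48 bases before it, and the exact X1 letters were not found. Of 32851 RefSeq windows of 300 bases around a start, 37.4% held a Y box core, 20.8% an X2 core and 3.48% an X1 core. An X1 core followed by a Y box with 18 to 22 bases between them, a spacing chosen after these sequences were seen, stood in 5 windows, 0.0152% of all, and 3 of the 5 were those of H2-Eb1, H2-DMb1 and its neighbour H2-DMb2. H2-DMa had 2 annotated starts, 1 of which held a Y box 198 bases upstream. Promoters of H2-Ab1, Cd74 and Ciita are not shown.

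In the 8 undamaged livers of batch 1, Cd74 had the highest level per length of exon, 191.5 ± 135.2 RPKM (CPM per kilobase of exon, mean ± SD). The chain genes followed with 98.3 ± 75.7 RPKM for H2-Ab1, 87.3 ± 65.3 for H2-Aa and 57.9 ± 47.6 for H2-Eb1. The exchanger and the coactivator were far lower, at 5.34 ± 4.13 RPKM for H2-DMb1, 1.26 ± 0.89 for H2-DMa and 0.26 ± 0.24 for Ciita. The spread between livers was nearly as large as each mean, but it was shared by the genes: H2-Eb1 was below H2-Aa and H2-Ab1 in 8 of 8 libraries, and H2-Ab1 was above H2-Aa in 7 of 8. The H2-DMa value is understated because its annotated exons include a long one. Cd74 alone took 40.6 to 50.8% of the reads of the 7 genes in the 19 grouped libraries of batch 1. Over these 19 libraries the 21 pairs of members had Spearman correlations of CPM of 0.846 to 0.977, a description of libraries that share conditions and batch. In the 30 libraries of batch 2 the 21 pairs ran from -0.191 to 0.828 with a median of 0.433, and the pairs of the 4 abundant genes from 0.517 to 0.828. There Ciita was at 0 reads in 8 libraries, H2-DMa in 5 and H2-DMb1 in 2.

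**Figure D1:**
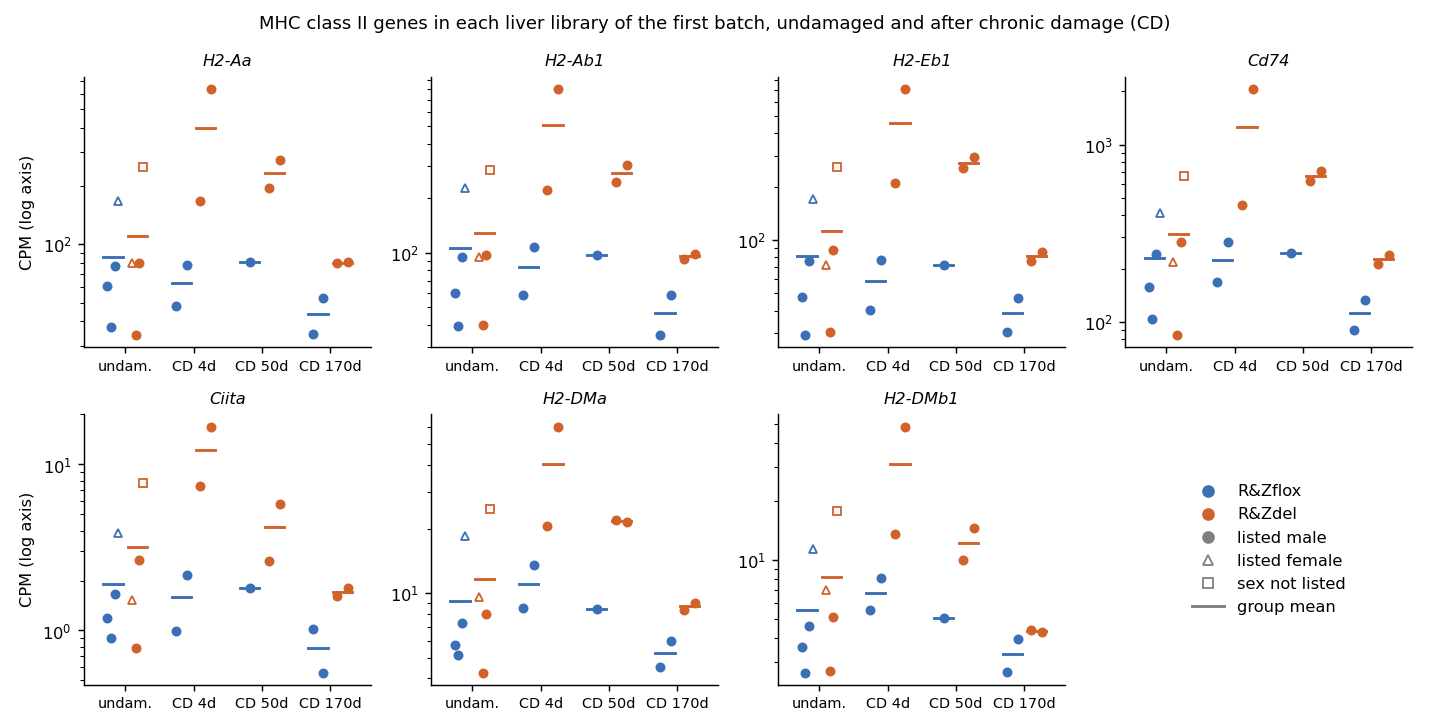
CPM of the 7 class II genes in each grouped library of batch 1 on a log axis. R&Zflox and R&Zdel libraries stand side by side for undamaged livers (3M and 7M together), CD 4d, CD 50d and CD 170d. At CD 4d the R&Zdel libraries reached 166 and 630 CPM for H2-Aa against 48.2 and 78.7 CPM in R&Zflox.

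At CD 4d every R&Zdel library lay above every R&Zflox library for all 7 members. How many of all genes separate in this way was not counted, and the 7 genes varied together across these libraries. H2-Aa stood at 48.2 and 78.7 CPM in R&Zflox and at 166 and 630 CPM in R&Zdel. Its partner H2-Ab1 stood at 58.5 and 107.3 CPM in R&Zflox and at 221 and 798 CPM in R&Zdel. The I-E beta chain H2-Eb1 stood at 40.0 and 77.0 CPM in R&Zflox and at 210.0 and 709 CPM in R&Zdel. In each chain gene the 2 R&Zdel livers differed more than 3-fold from each other, and the lower of them still exceeded both controls. Cd74 gave 167 and 282 CPM in R&Zflox and 459 and 2050 CPM in R&Zdel. Ciita, a gene of low level, gave 0.999 and 2.17 CPM in R&Zflox and 7.45 and 16.9 CPM in R&Zdel. For both genes the groups did not overlap. H2-DMa gave 8.59 and 13.6 CPM in R&Zflox and 20.8 and 60.3 CPM in R&Zdel. H2-DMb1 gave 5.53 and 8.09 CPM in R&Zflox and 13.6 and 48.4 CPM in R&Zdel. The exchanger genes had the smallest ratios of group means among the 7. Summed over the 7 genes, the R&Zdel mean was 6.02 times the R&Zflox mean in CPM and 3.93 times after TMM scaling, the scaling that the fits use, which moved the sums of the R&Zdel libraries to 801 and 2824 and those of the R&Zflox libraries to 347 and 575.

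In the edgeR quasi-likelihood fit of all grouped CD libraries, with a gene called at a Benjamini-Hochberg adjusted p under 0.1 and an absolute log2 fold change above 1, all 7 members were called higher in R&Zdel at CD 4d. In the same comparison 10.3% of the 11358 genes tested were called higher. The log2 fold changes of the 7 had a median of 2.09 beside 0.06 over all genes tested. H2-Eb1 changed by 2.45 ± 0.49 (SE, adjusted p = 0.0125), Ciita by 2.43 ± 0.51 (adjusted p = 0.0151) and H2-Aa by 2.12 ± 0.49 (adjusted p = 0.0206). H2-Ab1 rose by 2.09 ± 0.50 and Cd74 by 1.95 ± 0.54, with adjusted p of 0.0229 and 0.0371. H2-DMb1 rose by 1.66 ± 0.46 and H2-DMa by 1.35 ± 0.40, with adjusted p of 0.0381 and 0.0469. With 2 libraries a group the calls rested on single livers: without R&Zdel replicate 2 only H2-Eb1 was called, with log2 fold changes of 0.51 to 1.83 for the 7, and without R&Zflox replicate 1 none was, at 1.06 to 2.06 with 6 members at an unadjusted p under 0.05. With 3 of the 4 libraries of contradictory labels placed by their sample characteristics, H2-Eb1 and Ciita alone were called at CD 4d, with log2 fold changes of 1.34 to 2.44 and adjusted p of 0.057 to 0.133 for the 7.

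**Figure D2:**
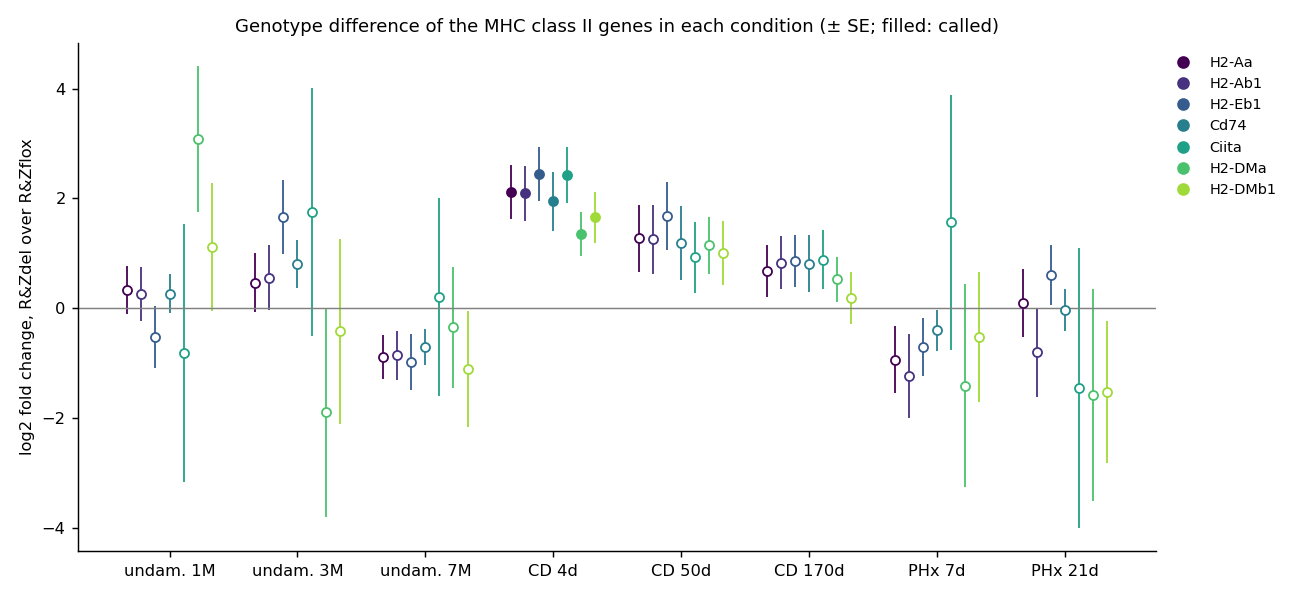
Log2 fold changes of R&Zdel over R&Zflox with their standard errors for each class II gene, from the edgeR fits, at each undamaged, CD and PHx time. All 7 genes lie above 1 at CD 4d, between 0.93 and 1.68 at CD 50d and between 0.18 and 0.89 at CD 170d.

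Set against undamaged males of the same genotype and batch, the rise at CD 4d was seen in R&Zdel livers. The references differ in age, with 2 livers at 7M in R&Zdel and 2 at 3M and 1 at 7M in R&Zflox, so age and genotype cannot be told apart in them. In R&Zflox the 7 genes summed to 338 and 219 CPM at 3M and 504.4 CPM at 7M, and in R&Zdel to 196 and 562 CPM. The undamaged R&Zdel libraries gave 34.0 and 80.0 CPM for H2-Aa, 84.4 and 282 CPM for Cd74 and 0.783 and 2.66 CPM for Ciita. All 7 members were called higher in R&Zdel CD 4d, with log2 fold changes of 2.08 to 2.34, where 19.6% of 12549 genes were called higher. With all grouped libraries of batch 1, both sexes, the 7 remained called at 1.35 to 1.61. That fit adds an undamaged R&Zdel library with no sex listed, whose sum of 1510 CPM lies above the 1098 CPM of the lower R&Zdel CD 4d library. In R&Zflox none of the 7 was called between CD 4d and undamaged by edgeR, with log2 fold changes of -0.01 to 0.79, where 5.42% of genes were called in either direction. None of the 7 reached an unadjusted p under 0.05 there, and DESeq2 called none. The difference between the genotypes in this change was itself called for 2 members, H2-Aa at 2.18 ± 0.69 (adjusted p = 0.0743) and H2-Eb1 at 2.26 ± 0.77 (adjusted p = 0.0877), against 6.14% of genes called in that direction. The other 5 had differences of 1.34 or more on the log2 scale and all 7 had an unadjusted p under 0.05. Leaving out 1 library at a time moved the number of members called in this difference between 0 and 7. Without R&Zdel CD 4d replicate 2, the rise over undamaged R&Zdel was called for H2-DMa and H2-DMb1 alone.

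At CD 50d the R&Zdel libraries were again above the R&Zflox library, which is single. The share of all genes in this order was not counted. H2-Aa read 80.8 CPM in R&Zflox and 196 and 273 CPM in R&Zdel. Cd74 read 246 CPM in R&Zflox and 624 and 709 CPM in R&Zdel. Ciita read 1.80 CPM in R&Zflox and 2.62 and 5.80 CPM in R&Zdel. The ratio of the summed means was 2.92 in CPM and 2.36 after TMM scaling. EdgeR called none of the 7 between the genotypes, where 5.58% of genes were called. The fitted log2 fold changes were 0.93 to 1.68 with a median of 1.20, beside 0.01 over all genes. H2-Eb1 alone had an unadjusted p under 0.05 and was the 1 member that DESeq2 called. With the R&Zflox CD 170d libraries counted as CD 50d, a second reading of their labels, all 7 were called at 1.31 to 2.14, and with those 3 libraries of contradictory labels placed by characteristics none was, at 0.24 to 0.64.

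Compared with undamaged R&Zdel livers, 6 of the 7 members were called higher in R&Zdel CD 50d, where 9.74% of genes were. H2-Eb1 was higher by 1.96 ± 0.57 on the log2 scale (adjusted p = 0.0402), H2-Aa by 1.76 ± 0.52 (adjusted p = 0.0405) and H2-DMa by 1.58 ± 0.41 (adjusted p = 0.0275). Ciita, at 0.98 ± 0.57 (adjusted p = 0.239), was the member that was not called. Without R&Zdel 7M replicate 1 none of the 7 was called, at a median log2 fold change of 1.24 in place of 1.61 and with 1 member at an unadjusted p under 0.05, and without R&Zdel CD 50d replicate 2 only 1 was, at a median of 1.75. In R&Zflox the same step gave log2 fold changes of 0.42 to 0.54 and no call, where 0.00797% of genes were called. The difference between genotypes in the CD 50d change gave no call among all genes (0%). For both of these no member had an unadjusted p under 0.05 and DESeq2 called none.

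At CD 170d the group means were below those at CD 50d in both genotypes, a step that was not tested. H2-Aa read 34.5 and 52.7 CPM in R&Zflox and 80.3 and 80.9 CPM in R&Zdel. Cd74 read 90.8 and 133 CPM in R&Zflox and 214 and 240.4 CPM in R&Zdel. Ciita read 1.02 and 0.558 CPM in R&Zflox and 1.61 and 1.79 CPM in R&Zdel. The ratio of summed means was 1.99 in CPM and 1.75 after TMM scaling. In CPM the R&Zdel libraries still lay above the R&Zflox libraries for all 7 members. TMM scaling, which divides CPM by a library factor, undoes this for H2-DMb1. Its R&Zflox replicate 2 has 3.95 CPM and a factor of 0.847, and R&Zdel replicate 1 has 4.36 CPM and 0.955. Here too the share of all genes that separate in this way was not counted. The fitted log2 fold changes were 0.18 to 0.89 with a median of 0.81, and edgeR called none of the 7, where 0.625% of genes were called. Neither genotype differed by a call from its undamaged livers at CD 170d, with log2 fold changes of -0.55 to -0.03 in R&Zflox, where 0.0239% of genes were called, and of -0.05 to 0.46 in R&Zdel, where the share was 0%. The difference between genotypes also gave 0%. In none of these 4 comparisons did a member have an unadjusted p under 0.05 or a DESeq2 call.

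The other genes of the pathway are read beside the 15.2% of all genes called in either direction at CD 4d. Of 9 tested genes for class II loading and turnover, which include the lysosomal protease cathepsin S (Ctss) and the H2-DM brake H2-Oa and H2-Ob, edgeR called 0 between the genotypes, 2 had an unadjusted p under 0.05, and their median log2 fold change was -0.26. H2-DMb2, the near-identical neighbour of H2-DMb1 with which reads may be shared, read 1.20 and 2.07 CPM in R&Zflox and 1.71 and 3.22 CPM in R&Zdel at CD 4d, a log2 fold change of 0.09 ± 0.73. Of the 6 tested promoter factors, Rfx and NF-Y subunits and Creb1, edgeR called 0, with a median of 0.07 and 1 gene, Creb1, at an unadjusted p under 0.05. Of the 8 tested genes of the interferon gamma arm that are reported here, 1 was called and the median was 0.61. This was Cxcl10, a chemokine that interferon induces, which stood at 3.70 and 5.18 CPM in R&Zflox and 28.2 and 40.3 CPM in R&Zdel and rose by 2.45 ± 0.29 (adjusted p = 0.00181). Irf1, an interferon target and activator of Ciita, was at 0.69 ± 0.24 (adjusted p = 0.0764), below the fold required.

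Class I presentation, the parallel route for peptides made inside the cell, had 1 of 12 genes called at CD 4d and a median log2 fold change of 0.50. That gene was Nlrc5, the class I counterpart of Ciita, at 4.84 and 5.36 CPM in R&Zflox and 15.1 and 15.3 CPM in R&Zdel, a rise of 1.09 ± 0.34 (adjusted p = 0.055). Of 6 costimulatory genes only 2 passed the filter on low counts in the CD fit and edgeR called neither, with unadjusted p above 0.05 for both. Icosl, the ligand of the T cell receptor ICOS, did not pass it and read 0.699 and 1.52 CPM in R&Zflox and 15.4 and 18.3 CPM in R&Zdel, given without a test. In the fit that includes undamaged livers Ctss rose by 2.86 ± 0.39 in R&Zdel and by 1.33 ± 0.33 in R&Zflox, with adjusted p of 4.91e-04 and 0.0412, and its difference of 1.52 ± 0.51 was called as well (adjusted p = 0.0825). For Ctss the R&Zdel libraries stood at 140 and 354 CPM and the R&Zflox libraries at 62.5 and 119 CPM.

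**Figure D3:**
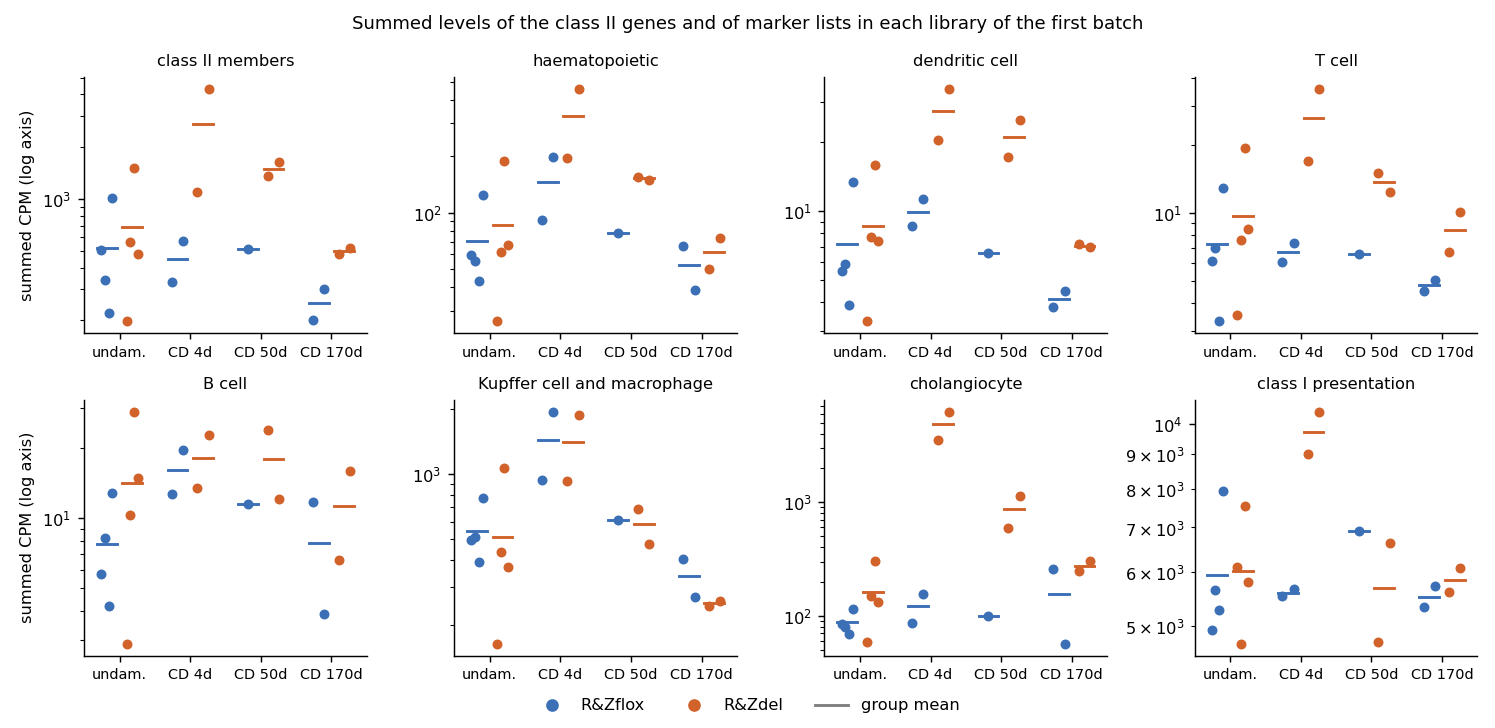
Summed CPM of marker lists of liver and blood cell types, and of the 7 class II genes, in each grouped library of batch 1 on a log axis. At CD 4d the haematopoietic list gave 91.3 and 198 CPM in R&Zflox and 196 and 457 CPM in R&Zdel, and the B cell list 12.7 to 19.7 and 13.4 to 22.8 CPM.

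At CD 4d 1167 of 11358 genes were called higher and 560 lower. Markers of some other cell types moved with the class II genes there and those of others did not. Their part in the result was not tested. The 6 haematopoietic genes summed to 91.3 and 198 CPM in R&Zflox and to 196 and 457 CPM in R&Zdel, with 1 gene, Cd52, called higher and a median log2 fold change of 0.68. The 7 class II genes stood at 3.60 and 2.87 times this sum in R&Zflox and at 5.59 and 9.43 times in R&Zdel. Over the cholangiocyte markers the ratio went the other way, at 3.78 and 3.63 in R&Zflox and 0.311 and 0.686 in R&Zdel. The dendritic cell list summed to 8.62 to 11.3 CPM in R&Zflox and 20.4 to 34.2 CPM in R&Zdel, and of its 3 tested genes Itgax, the integrin CD11c, was called higher by 2.22 ± 0.62. T cell markers summed to 6.06 and 7.38 CPM in R&Zflox and to 17.01 and 35.65 CPM in R&Zdel, with Lck and Cd3g called among 4 tested. The B cell list summed to 12.7 to 19.7 CPM and 13.4 to 22.8 CPM, and edgeR called 0 of its 6 tested genes, none at an unadjusted p under 0.05. Kupffer cell and macrophage markers summed to 936 to 1940 CPM and 930 to 1870 CPM, with Marco and Cd5l called lower among 11 tested. Ighm of the B cell list and Trac of the T cell list were at 0 in all 4 libraries, and no other gene of these lists was at 0 in both libraries of a genotype. Sinusoidal endothelial markers summed to 273 to 274 CPM in R&Zflox and 139 to 279 CPM in R&Zdel, with Clec4g and Lyve1 called lower among 7. Monocyte markers summed to 661 to 1170 CPM and 874 to 1210 CPM, with Ccr2 called higher among 5 tested. Stellate cell markers summed to 205 to 306 CPM and 361 to 986 CPM, with Col1a1 and Col3a1 called higher among 7, and NK cell markers to 4.66 to 9.72 CPM and 10.4 to 22.2 CPM, with none called of 1 tested, which had an unadjusted p under 0.05. The cholangiocyte list had all 6 genes called higher, with sums of 87.2 to 157 CPM in R&Zflox and 3530 to 6290 CPM in R&Zdel.

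Undamaged livers showed no called member between the genotypes at any age. At 1M edgeR called 0 of 7, where 0.436% of 12848 genes were called, with 1 member, H2-DMa, at an unadjusted p under 0.05. H2-Aa read 58.8, 17.4, 57.5 and 10.6 CPM in R&Zflox and 76.2, 46.0, 60.0 and 28.9 CPM in R&Zdel, which overlap. H2-DMa read 0, 1.85, 3.30 and 1.04 CPM in R&Zflox and 25.0, 9.86, 18.3 and 2.05 CPM in R&Zdel, a log2 fold change of 3.09 ± 1.33 (adjusted p = 0.545). At 3M edgeR again called 0, where 0.226% of genes were called, with H2-Eb1 alone at an unadjusted p under 0.05 (1.66 ± 0.68, adjusted p = 0.661). In batch 2 H2-Eb1 read 5.08, 1.11 and 2.59 CPM in R&Zflox at 3M and 17.7 CPM in the single R&Zdel library. DESeq2 called 0 members at 1M, 3M and 7M.

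At 7M the direction was the opposite in batch 2. In CPM the R&Zdel libraries were below all R&Zflox libraries for H2-Aa, H2-Ab1, H2-Eb1, Cd74 and H2-DMb1. For H2-Eb1 the groups overlap after TMM scaling, which divides CPM by a library factor. R&Zdel replicate 5 has 29.3 CPM and a factor of 0.819, and R&Zflox replicate 2 has 30.9 CPM and 1.03. The share of all genes with such a separation was not counted. H2-Aa read 87.4, 68.6 and 75.6 CPM in R&Zflox and 38.9, 46.2 and 32.2 CPM in R&Zdel. Cd74 read 317, 212 and 222 CPM in R&Zflox and 121, 166 and 150.1 CPM in R&Zdel. Kupffer cell and macrophage markers moved the same way, at 291 to 403 CPM in R&Zflox and 179 to 249 CPM in R&Zdel, as did the haematopoietic list at 59.0 to 62.3 and 31.3 to 37.6 CPM, and their part was not tested. In batch 1 the groups overlapped, with H2-Aa at 77.7 and 168 CPM in R&Zflox and 34.0, 80.0 and 249 CPM in R&Zdel. Over both batches, in the fit with sex and batch as terms, H2-Aa differed by -0.88 ± 0.40 (adjusted p = 0.522) and Cd74 by -0.71 ± 0.32 (adjusted p = 0.522). These 2 had an unadjusted p under 0.05, edgeR called 0 of 7, and 0.451% of genes were called. The library of batch 1 that reads 249 CPM has no sex listed and is not in that fit.

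Sex gave no called member in undamaged livers by edgeR or DESeq2, where 0.918% of genes were called, and none had an unadjusted p under 0.05. The log2 fold changes of females over males were 0.23 ± 0.36 for H2-Aa and -0.05 ± 0.29 for Cd74.

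**Figure D4:**
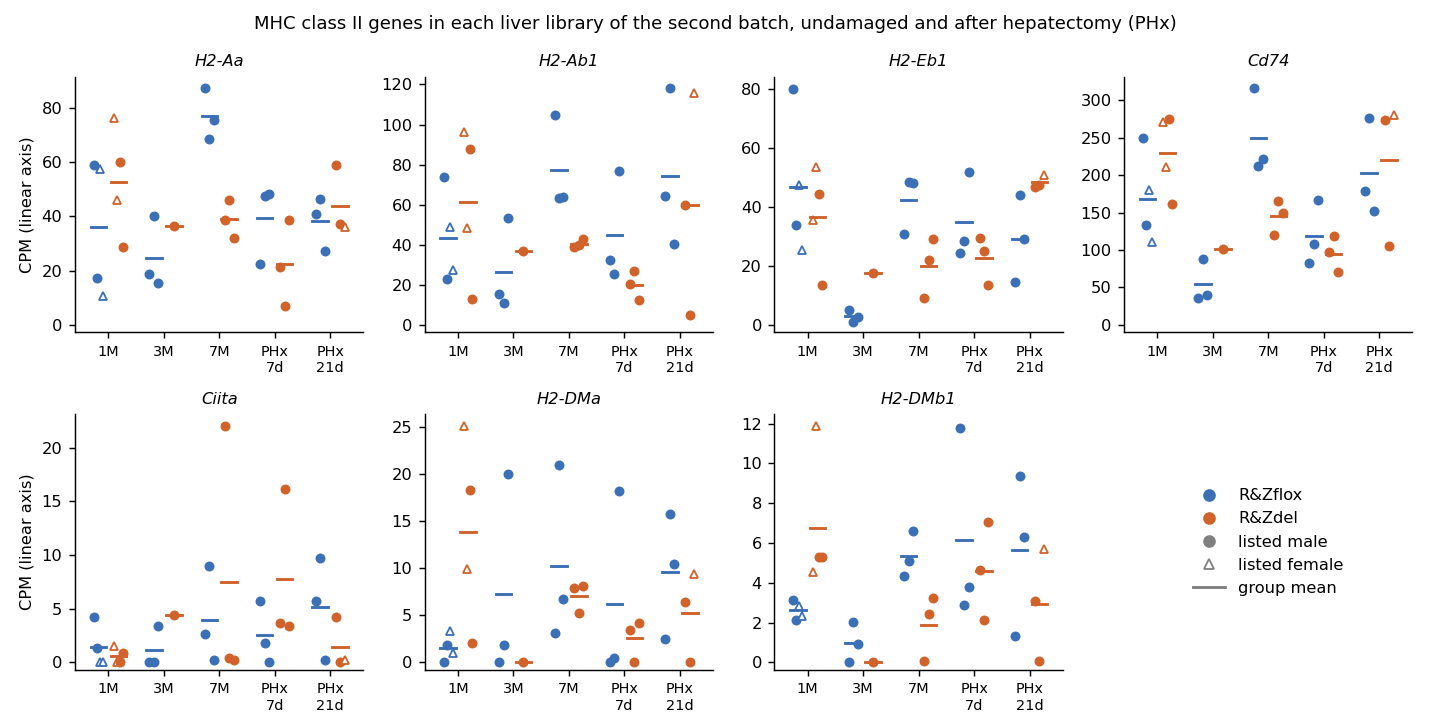
CPM of the class II genes in each library of batch 2, undamaged and after partial hepatectomy, by genotype. Cd74 lay at 82.8 to 167 CPM in R&Zflox and 70.1 to 119 CPM in R&Zdel at PHx 7d.

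After partial hepatectomy, in which lobes are removed and the rest of the liver regrows, no class II gene was called between the genotypes. At 7 days Cd74 read 82.8, 108 and 167 CPM in R&Zflox and 96.8, 119 and 70.1 CPM in R&Zdel. H2-Ab1 read 32.3, 25.2 and 76.8 CPM in R&Zflox and 20.6, 26.8 and 12.6 CPM in R&Zdel. Both genes overlapped between the groups. The log2 fold changes of the 4 abundant genes were -0.40 to -1.24, and of the 7 members 0 were called by the adjusted p, where 0.274% of 12773 genes were, and 0 by the rule of the study for this model, which keeps the fold and takes the p without adjustment, where 3.99% were. At 21 days Cd74 read 179, 277 and 152 CPM in R&Zflox and 274, 106 and 281 CPM in R&Zdel, with a log2 fold change of -0.03 ± 0.39. H2-Eb1 read 14.5, 44.1 and 29.1 CPM in R&Zflox and 47.0, 47.5 and 51.0 CPM in R&Zdel, which do not overlap in CPM. They do overlap after TMM scaling, which divides CPM by a library factor. That factor is 0.931 for the R&Zflox library at 44.1 CPM and 1.01 for the R&Zdel library at 47.0 CPM. The share of all genes that separate in CPM was not counted. The log2 fold change of H2-Eb1 was 0.60 ± 0.54 (adjusted p = 0.813). At this time 0 members were called by the adjusted p, where 0.329% of genes were, and 0 by the unadjusted rule, where 6.56% were. No member had an unadjusted p under 0.05 at either time in edgeR, and DESeq2 called 0.

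Within a genotype, R&Zdel livers at PHx 7d were lower than at 1M undamaged for Cd74, which read 272, 212, 275 and 162 CPM at 1M. The ranges of 70.1 to 119 and 162 to 275 CPM did not overlap, and the share of all genes with such a separation was not counted. The log2 fold change of Cd74 was -1.22 ± 0.38 with an unadjusted p of 0.00451 and an adjusted p of 0.901. Marker lists were lower in the same libraries, and their part was not tested: Kupffer cell and macrophage markers summed to 466 to 711.7 CPM at 1M and 106 to 317 CPM at PHx 7d, sinusoidal endothelial markers to 279 to 436 and 110 to 157 CPM, and haematopoietic markers to 82.0 to 142 and 48.1 to 72.8 CPM. EdgeR called 0 members in that step, where 0.0157% of genes were called, and DESeq2 called 1, Cd74. In R&Zflox the step from 1M to PHx 7d gave 0 called members, where 0.0235% of genes were called, with Cd74 at -0.54 ± 0.37. The steps from 1M to PHx 21d called no gene at all in R&Zflox (0%) or R&Zdel (0%). The differences between genotypes in these changes also called no gene at 7 days (0%) or 21 days (0%). Apart from Cd74 in R&Zdel at 7 days, no member had an unadjusted p under 0.05 in these 6 comparisons and DESeq2 called none.

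Other genes were compared across libraries with the mean log2 CPM of H2-Aa, H2-Ab1, H2-Eb1 and Cd74, without Ciita, H2-DMa and H2-DMb1. They were ranked by the lower of the Spearman correlations in batch 1 (19 libraries) and batch 2 (30 libraries), over 10959 genes. Mmrn2, an endothelial matrix protein, came first at 0.721 and 0.70. It was followed by Gimap6, Mylip and Klf6, with lower values of 0.656, 0.639 and 0.637. The next 6 were Spata6, Blnk, Osmr, Ckb, Tyrobp and Itm2c, at 0.593 to 0.626 in the batch where each was lower. Blnk is an adaptor of B cell receptor signalling and Tyrobp an adaptor of myeloid cells. The libraries share conditions, depth and batch, and no test was made of these values.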

How the data were processed

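Whole-liver RNA was made into Smart-Seq2 libraries, and the authors deposited gene counts, as a table for batch 2 and a file per library for batch 1. Reads were aligned with STAR 2.5.0a and counted with featureCounts (1.5.0-p1 or 1.5.0-p3 in the labels and file headers), without strand in batch 1. Neither strand nor annotation is given for batch 2 in the sources used here. 2 samples without a count column were not analysed here. CPM is the count over the library total. Tests were edgeR 4.0.16 quasi-likelihood fits in R 4.3.3 (TMM, CPM above 1 in at least 3 libraries, or 6 in the CD fit) with the terms of the study: genotype by time, with sex and batch for undamaged and sex for PHx livers. Lone groups borrow their spread from the others. P-values measure the spread between these libraries. Fits were tested on simulated data. Alternatives were DESeq2 1.42.0, RLE size factors, no filter and leaving out libraries. Members and lists were chosen with earlier results of these data known. Besides the members, the named genes are up to 6 called genes per comparison with the smallest p from the fixed lists, plus neighbours and markers chosen after their values were seen. The H2 genes also lie on 3 alternate contigs, so their reads may be divided. The result of 1 gene of the interferon gamma list is not reported here.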

Additional observations from a re-analysis of the deposited data

Results flagged for a closer look

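H2-DMb1 in undamaged R&Zdel livers at 1M had 1 library far from the other 3, at 11.87 CPM against 4.53 to 5.29 CPM. Such a gap arises by chance in about 1 in 20 groups.

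The change from undamaged to CD 4d differed between the genotypes for H2-Aa by 2.18 and for H2-Eb1 by 2.26 on the log2 scale, both larger in R&Zdel, by edgeR's test of the difference itself.

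One R&Zdel library at 7M with no sex listed, replicate 6 of batch 1, entered only alternative fits, those with both sexes or without a sex term. Its 7 class II genes summed to 1510 CPM, above the highest undamaged R&Zflox library at 1013 CPM, and within the range of R&Zdel livers after CCl4.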

How the results depend on the processing

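Leaving out 1 library at a time, the number of class II genes called at CD 4d between the genotypes ran from 0 to 7, in R&Zdel CD 4d against undamaged from 2 to 7, in R&Zdel CD 50d against undamaged from 0 to 7 and in the difference at CD 4d from 0 to 7. The other 20 comparisons stayed at 0 to 0. In the difference at CD 4d, leaving out R&Zdel 7M replicate 1, R&Zflox 7M replicate 1, R&Zflox 3M replicate 2, R&Zdel CD 4d replicate 2 or either R&Zflox CD 4d replicate gave 0 calls. Median log2 fold changes there ran from 0.95 (without R&Zdel CD 4d replicate 2) to 2.49 (without R&Zflox CD 4d replicate 2), beside 1.98, so some lost the call and not the size. In R&Zdel CD 50d, leaving out R&Zdel CD 50d replicate 1 left 3. With 3 of the libraries of contradictory labels placed by characteristics, CD 4d had 2. Without the filter on low counts CD 50d had 5, the difference at CD 4d 7, the difference at CD 50d 3 and R&Zdel PHx 7d against 1M 1. DESeq2 gave 1, 5 and 1 for CD 50d, the difference at CD 4d and R&Zdel PHx 7d, and edgeR's likelihood ratio test gave 1 at CD 50d and 4 in the difference at CD 4d. With both sexes of batch 1, the difference at CD 4d and R&Zdel CD 50d against undamaged each had 0. With the R&Zflox CD 170d libraries as CD 50d, CD 50d had 7. The TMM-scaled summed level moved beyond the replicate spread for R&Zdel 7M of batch 2 (284.9 CPM). This rule depends on the spread of each group and so passes over large shifts in variable groups. R&Zdel CD 4d, at 2705 ± 2273 CPM (mean ± SD), was not flagged, yet its ratio over R&Zflox went from 6.02 to 3.93 with TMM scaling. Groups of 1 library have no such spread and were judged by the counting interval of that library. R&Zdel 3M (502.8 CPM in batch 1, 210.2 in batch 2) and R&Zflox CD 50d (552.8) moved beyond it. The causes were not tested.

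With the replicate number as a replicate block the difference at CD 4d had 5 calls in place of 2, and CD 4d kept 7. Of 17 correlations between same-numbered libraries, 4 were above 0.1, and both CD 4d pairs gave 0.352. In groups of 2 livers the deviations mirror each other, so both pairs give the same value. Whether the numbers pair the livers is not settled by these values.

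For members called in the report, all 98 values without 1 library and all 139 under the other alternatives kept their direction, with 46 and 13 of them no longer past the threshold. CD 50d gives no value without its single R&Zflox library, and CD 50d against 3M gives none in R&Zdel, which has no male 3M library in batch 1. Groups of 1 or 2 livers, and 0 reads of Ciita and H2-DMa in many libraries of batch 2, limit detection.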

Other observations

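In batch 1, 4 libraries entered no group because their labels contradict each other on the condition or the sample list of the study on genotype. Their 7 class II genes summed to 226.9, 961.4, 726.3 and 506.1 CPM. These lie within the 199.0 to 4312 CPM of the grouped CD libraries and within the 196.4 to 1510 CPM of the grouped undamaged ones. The sums therefore cannot place these libraries.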
